A study of Mus musculus with 8 samples.

Results

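Ubd and 8 genes of the interferon response were followed in mouse liver: the regulator Irf7, the antiviral effectors Isg15, Ifit1 and Ifit3, the guanylate-binding proteins Gbp2 and Gbp3, and the immunoproteasome subunits Psmb8 and Psmb9. The 9 genes were taken by gene name from the 55487 genes of the deposited table, and each was present and passed the filter on low values. Ubd was the member that differed most between the groups. It had 36.7 FPKM after the western diet with CCl4, 3.29 to 11.9 FPKM after CCl4 alone, 8.19 to 11.1 FPKM after the western diet alone, and 0 to 0.733 FPKM in livers with neither.

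Interferons bind receptors at the cell surface, and the kinases Jak1, Jak2 and Tyk2 then pass the signal on to transcription factors. Type I interferons act mainly at the interferon-stimulated response element (ISRE), through a complex that holds Stat2 and Irf9, and interferon-gamma acts mainly at the GAS element. Irf7 is both a product of this pathway and a factor that drives further interferon transcription. Ubd encodes FAT10, a ubiquitin-like protein that is attached to other proteins and directs them to the proteasome; in cells it is induced by interferon-gamma together with TNF, and it is known from livers with chronic injury and liver cancer.

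The RNA came from liver of male wild-type C57BL/6N mice in 4 groups. The western diet + CCl4 group (1 library) received a high-fat diet, drinking water with 23.1 g/L fructose and 18.9 g/L glucose, and CCl4, a solvent that liver enzymes turn into a reactive radical. The normal diet + CCl4 group (2 libraries) received chow, tap water and CCl4. The western diet + oil group (2 libraries) had the same high-fat food and sugar water with corn oil, and the normal diet + oil group (3 libraries) had chow, tap water and corn oil. Both CCl4 and oil were injected into the peritoneum weekly, so every mouse was injected. The sources used here do not give the age of the mice, the dose of CCl4 or the length of treatment. Nothing in the labels says that libraries came from separate animals, so p-values measure how far these libraries differ, and that spread may be technical. The tests assume that the lone western diet + CCl4 library varies as the other groups do.

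Values are FPKM, fragment numbers divided by transcript length and by the mapped total of each library, and the depth behind them is unknown. FPKM summed to between 514832 and 612747 per library, and the lowest value above 0 lay between 0.252 and 0.318. All 8 hepatocyte markers were above 0 in every library. The major urinary protein family, made by hepatocytes, took 8.22% of the sum in western diet + CCl4, 2.80% to 4.65% in normal diet + CCl4, 9.16% to 10.0% in western diet + oil and 16.9% to 32.5% in normal diet + oil. The median log2 fold change over all 11514 tested genes was 0.19 for western diet + CCl4, 0.26 for normal diet + CCl4 and 0.22 for western diet + oil, each against normal diet + oil. Changes of the members are therefore given beside these medians. Where libraries stood apart, western diet + CCl4 1 had a summed FPKM of 443 over 6 neutrophil markers, against 2.10 to 42.0 in the other libraries. Normal diet + CCl4 1 had 455 FPKM of Spp1, which encodes the secreted protein osteopontin, against 26.8 in normal diet + CCl4 2.

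Promoter sequences are shown because 7 of the 9 members carry a match to an ISRE, GAS or NF-kappaB motif and the printed windows differ in which one they hold. The windows reach from 250 bases before to 50 bases after the transcript start in RefSeq (GRCm38.p6), and 9 of 9 members were matched by symbol. Each is written 5′ to 3′ on the strand of its gene, with capitals on the motif. In Ubd (chr17:37193642-37193941, + strand) the capitals mark an NF-kappaB consensus at bases -15 to -6 from the start. In Isg15 (chr4:156200769-156201068, - strand), Ifit1 (chr19:34640639-34640938, + strand), Ifit3 (chr19:34583279-34583578, + strand) and Gbp2 (chr3:142620413-142620712, + strand) they mark the ISRE core, which is GAAA, any 2 bases and GAAA again, and reads TTTC, any 2 bases and TTTC where it lies on the opposite strand.
Ubd: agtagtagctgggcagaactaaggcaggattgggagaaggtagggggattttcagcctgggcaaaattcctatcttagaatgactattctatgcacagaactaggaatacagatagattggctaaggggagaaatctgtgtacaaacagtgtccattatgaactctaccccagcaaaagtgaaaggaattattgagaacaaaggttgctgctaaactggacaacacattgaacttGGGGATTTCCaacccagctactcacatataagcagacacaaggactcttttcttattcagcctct
Isg15: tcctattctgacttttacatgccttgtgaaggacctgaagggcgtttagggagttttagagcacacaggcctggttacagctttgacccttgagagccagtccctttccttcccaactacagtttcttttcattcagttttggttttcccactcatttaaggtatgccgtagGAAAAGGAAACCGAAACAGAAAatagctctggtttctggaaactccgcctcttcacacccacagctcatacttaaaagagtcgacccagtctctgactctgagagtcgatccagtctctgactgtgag
Ifit1: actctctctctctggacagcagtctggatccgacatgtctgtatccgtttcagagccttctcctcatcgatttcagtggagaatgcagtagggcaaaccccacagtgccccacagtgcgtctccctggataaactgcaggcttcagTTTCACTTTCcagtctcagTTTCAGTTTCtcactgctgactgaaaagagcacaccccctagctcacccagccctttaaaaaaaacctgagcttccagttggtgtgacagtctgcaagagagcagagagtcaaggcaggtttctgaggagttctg
Ifit3: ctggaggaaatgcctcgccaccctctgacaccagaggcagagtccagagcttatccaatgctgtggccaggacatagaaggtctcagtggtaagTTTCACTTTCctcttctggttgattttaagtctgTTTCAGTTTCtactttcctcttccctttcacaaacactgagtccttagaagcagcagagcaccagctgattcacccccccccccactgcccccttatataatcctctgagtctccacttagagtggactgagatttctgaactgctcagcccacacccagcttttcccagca
Gbp2: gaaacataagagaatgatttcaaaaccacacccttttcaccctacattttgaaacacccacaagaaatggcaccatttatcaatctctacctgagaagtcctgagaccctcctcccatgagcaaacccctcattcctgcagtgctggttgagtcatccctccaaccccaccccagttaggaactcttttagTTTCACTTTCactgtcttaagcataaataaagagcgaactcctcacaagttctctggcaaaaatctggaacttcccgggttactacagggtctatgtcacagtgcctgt
Isg15 held 3 overlapping copies of the ISRE core between bases -78 and -57, Ifit1 and Ifit3 held 2 each, and Gbp2 held 1 at bases -59 to -50. Gbp3 had 2 windows, of which 1 holds 2 overlapping copies and the other none. Counted by gene over all windows of each gene, 5 of the 9 members had the ISRE core, against 3.99% of 27025 genes. The NF-kappaB consensus was found in Ubd only among the 9, against 6.55% of all genes. The GAS motif, TTC, any 3 bases and GAA, was found in Psmb8 only, against 9.55% of all genes. Irf7 and Psmb9 had none of the 3 motifs in these windows. The windows of Psmb8 (34197945 to 34198244) and Psmb9 (34187281 to 34187580) lie inside these genes as GENCODE places them. For both, the bases before the GENCODE start of the gene were therefore not searched. Both strands were searched, and a match is a description of letters, not of binding.

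Ubd (ENSMUSG00000035186, protein coding) lies on chromosome 17 at 37193892 to 37196095 on the + strand of GRCm38. It had 36.7 FPKM in the western diet + CCl4 library, 11.9 and 3.29 FPKM in normal diet + CCl4 libraries 1 and 2, 8.19 and 11.1 FPKM in western diet + oil libraries 1 and 2, and 0.438, 0.733 and 0 FPKM in normal diet + oil libraries 1, 2 and 3. Every library that received CCl4, the western diet or both was above every normal diet + oil library, and the library with both was above all others. Ubd is listed at 0 in normal diet + oil 3, so no ratio to that group is given.

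On the scale of log2(FPKM + 1), which understates changes of low genes, Ubd rose by 4.80 ± 0.55 (SE) in western diet + CCl4 against normal diet + oil (limma adjusted p = 0.0106). It rose by 2.96 ± 0.44 in western diet + oil (limma adjusted p = 0.0193) and by 2.45 ± 0.44 in normal diet + CCl4 (limma adjusted p = 0.0432). These comparisons share the normal diet + oil libraries, and each call was lost when the replicate number was added to the model as a block. The call for western diet + CCl4 held with each other library left out (adjusted p 0.00225 to 0.0473), and it was lost with a pseudocount of 0.1 in place of 1 (6.69 ± 1.12, adjusted p = 0.067). The call for western diet + oil was lost when either library of that group or any of normal diet + oil was left out, with changes of 2.74 to 3.16 and adjusted p of 0.0517 to 0.232, and without a filter on low values (adjusted p = 0.063). The call for normal diet + CCl4 was lost without normal diet + CCl4 1 (1.66 ± 0.33, adjusted p = 0.153), when any 1 library of western diet + oil or normal diet + oil was left out (adjusted p 0.0968 to 0.114), and under median-of-ratios scaling (2.28 ± 0.41, adjusted p = 0.0648). It was also lost without a filter (adjusted p = 0.129), with a pseudocount of 0.1 (4.16, adjusted p = 0.0769), without the Mup family (adjusted p = 0.0531) and with the compared groups alone (adjusted p = 0.123). The western diet + oil and normal diet + CCl4 libraries overlapped, with group means of 9.66 and 7.58 FPKM.

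**Figure D1:**
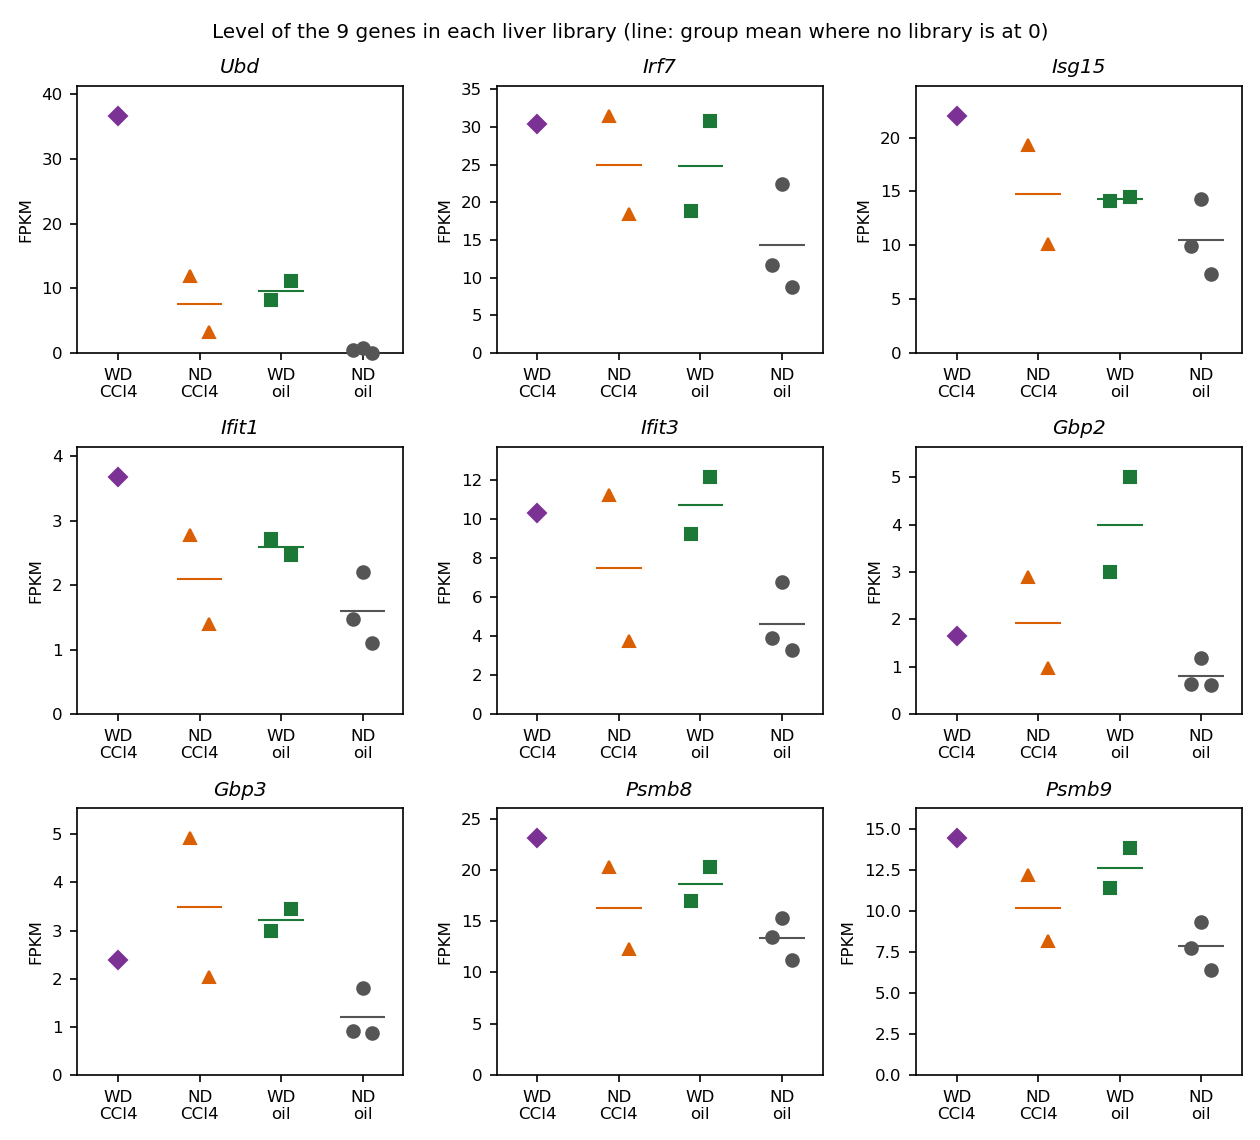
FPKM of the 9 genes (vertical axes, linear, starting at 0) in each of the 8 libraries, by group; WD is western diet, ND is normal diet, points are libraries and a line is a group mean where no library of the group is at 0. Ubd reaches 36.7 FPKM in the western diet + CCl4 library and stays at or under 0.733 FPKM in normal diet + oil, while the other members differ by less and normal diet + oil library 3 is the lowest point in every panel.

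Irf7, the transcription factor that amplifies the interferon response (ENSMUSG00000025498, chromosome 7, 141262706 to 141266481, - strand), had 30.4 FPKM in western diet + CCl4, 31.5 and 18.5 in normal diet + CCl4, 18.8 and 30.8 in western diet + oil, and 11.7, 22.4 and 8.75 in normal diet + oil. The western diet + CCl4 library was above all normal diet + oil libraries, and in both other groups 1 library lay within the range of normal diet + oil. The means were 25.0 ± 9.22 FPKM (SD, n = 2) for normal diet + CCl4, 24.8 ± 8.51 (n = 2) for western diet + oil and 14.3 ± 7.21 (n = 3) for normal diet + oil. The log2 fold changes against normal diet + oil were 1.14 ± 0.51, 0.82 ± 0.40 and 0.82 ± 0.40 for western diet + CCl4, normal diet + CCl4 and western diet + oil, with limma adjusted p of 0.343, 0.259 and 0.271. Irf7 overlaps Phrf1 on the other strand. The kit kept strand, but whether the counting used it was not given in the sources used here, so fragments of such pairs cannot be told apart.

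Isg15 encodes a ubiquitin-like protein that, like FAT10, is attached to other proteins (ENSMUSG00000035692, chromosome 4, 156199424 to 156200818, - strand). It had 22.0 FPKM in western diet + CCl4, 19.3 and 10.1 in normal diet + CCl4, 14.1 and 14.5 in western diet + oil, and 9.91, 14.3 and 7.35 in normal diet + oil. The western diet + CCl4 library was the highest of the 8, and the libraries of both other groups overlapped normal diet + oil. Its change was 1.04 ± 0.40 in western diet + CCl4, 0.43 ± 0.32 in normal diet + CCl4 and 0.46 ± 0.32 in western diet + oil, in log2 units (limma adjusted p = 0.267, 0.398 and 0.426).

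Ifit1 encodes a protein that binds foreign RNA and blocks its translation, and Ifit3 is a related gene. They lie 52139 bases apart on the + strand of chromosome 19, Ifit3 at 34583531 to 34588731 (ENSMUSG00000074896) and Ifit1 at 34640871 to 34650009 (ENSMUSG00000034459). Ifit1 had 3.69 FPKM in western diet + CCl4, 2.79 and 1.40 in normal diet + CCl4, 2.72 and 2.48 in western diet + oil, and 1.48, 2.21 and 1.10 in normal diet + oil. Ifit3 had 10.3 FPKM in western diet + CCl4, 11.2 and 3.77 in normal diet + CCl4, 9.24 and 12.2 in western diet + oil, and 3.88, 6.76 and 3.27 in normal diet + oil. For both genes the western diet + CCl4 and western diet + oil libraries stood above all of normal diet + oil, while normal diet + CCl4 1 stood above that group and normal diet + CCl4 2 lay within it. The changes of Ifit3 on the log2 scale were 1.05 ± 0.51, 0.49 ± 0.41 and 1.09 ± 0.41 for western diet + CCl4, normal diet + CCl4 and western diet + oil (limma adjusted p = 0.379, 0.451 and 0.163). Those of Ifit1 were 0.88 ± 0.32, 0.24 ± 0.25 and 0.49 ± 0.25 (limma adjusted p = 0.244, 0.544 and 0.283). Ifit3 has a close copy, Ifit3b, and how fragments shared between copies were assigned was not given in the sources used here.

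Gbp2 and Gbp3 encode guanylate-binding proteins, GTPases that gather on pathogen membranes and are strongly induced by interferon-gamma. They lie 47392 bases apart on the + strand of chromosome 3, Gbp3 at 142560026 to 142573209 (ENSMUSG00000028268) and Gbp2 at 142620602 to 142638008 (ENSMUSG00000028270). Gbp2 had 1.65 FPKM in western diet + CCl4, 2.89 and 0.964 in normal diet + CCl4, 2.99 and 5.02 in western diet + oil, and 0.635, 1.19 and 0.604 in normal diet + oil. Both western diet + oil libraries were above every other library. Gbp2 rose in western diet + oil against normal diet + oil, by 1.45 ± 0.32 log2 units (limma adjusted p = 0.0473), with means of 4.00 ± 1.43 (n = 2) and 0.811 ± 0.332 FPKM (SD, n = 3). That call was lost when any library of these groups was left out (1.16 to 1.75, adjusted p 0.0839 to 0.375) under median-of-ratios scaling (1.30 ± 0.30, adjusted p = 0.0718), without a filter (adjusted p = 0.116), with a pseudocount of 0.1 (2.19, adjusted p = 0.0603) and without the Mup family (adjusted p = 0.0637).

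Gbp2 did not pass in western diet + CCl4, at 0.57 ± 0.41 (limma adjusted p = 0.552), or in normal diet + CCl4, at 0.63 ± 0.32 (limma adjusted p = 0.27). Gbp3 had 2.40 FPKM in western diet + CCl4, 4.93 and 2.03 in normal diet + CCl4, 2.99 and 3.46 in western diet + oil, and 0.921, 1.80 and 0.879 in normal diet + oil. No library of the treated groups overlapped normal diet + oil. Its changes of 0.65 ± 0.38, 0.97 ± 0.30 and 0.96 ± 0.30 in western diet + CCl4, normal diet + CCl4 and western diet + oil did not pass (limma adjusted p = 0.464, 0.142 and 0.111). The normal diet + CCl4 change was 1.45 ± 0.27 (adjusted p = 0.0222) without normal diet + CCl4 2, and the western diet + oil change passed without either normal diet + CCl4 library (adjusted p = 0.0377 and 0.0379). Gbp2 overlaps the microRNA gene Mir6381 on the other strand, and guanylate-binding proteins share sequence with each other.

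Psmb8 and Psmb9 encode catalytic subunits that interferon adds to the proteasome in place of Psmb5 and Psmb6, forming the immunoproteasome that cuts peptides for MHC class I. They lie 9956 bases apart on chromosome 17, Psmb8 at 34197721 to 34201454 on the + strand (ENSMUSG00000024338) and Psmb9 at 34181987 to 34187764 on the - strand (ENSMUSG00000096727), 2992437 bases or more from Ubd on the same chromosome. Psmb8 had 23.1 FPKM in western diet + CCl4, 20.3 and 12.3 in normal diet + CCl4, 17.0 and 20.3 in western diet + oil, and 13.4, 15.4 and 11.2 in normal diet + oil. Psmb9 had 14.4 FPKM in western diet + CCl4, 12.2 and 8.15 in normal diet + CCl4, 11.4 and 13.8 in western diet + oil, and 7.75, 9.32 and 6.39 in normal diet + oil. The western diet + CCl4 library was the highest for both, the western diet + oil libraries were above normal diet + oil, and normal diet + CCl4 2 lay within normal diet + oil.

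The log2 changes of Psmb8 were 0.76 ± 0.30, 0.24 ± 0.24 and 0.46 ± 0.24 in western diet + CCl4, normal diet + CCl4 and western diet + oil (limma adjusted p = 0.286, 0.521 and 0.294). Under median-of-ratios scaling the normal diet + CCl4 value was -0.07. Those of Psmb9 were 0.82 ± 0.28, 0.33 ± 0.22 and 0.63 ± 0.22 (limma adjusted p = 0.224, 0.366 and 0.142). Psmb8 overlaps Gm20496 and Psmb9 overlaps Tap1, each on the other strand.

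A ratio within a library does not depend on its scaling, so each inducible subunit was divided by the constitutive one it replaces. Psmb8 over Psmb5 was 0.360 in western diet + CCl4, 0.257 and 0.195 in normal diet + CCl4, 0.255 and 0.291 in western diet + oil, and 0.174, 0.247 and 0.237 in normal diet + oil. Psmb9 over Psmb6 was 0.123 in western diet + CCl4, 0.0920 and 0.0694 in normal diet + CCl4, 0.0935 and 0.0914 in western diet + oil, and 0.0521, 0.0788 and 0.0719 in normal diet + oil. Both ratios were highest in the western diet + CCl4 library, lay above normal diet + oil in both western diet + oil libraries, and in normal diet + CCl4 were above it in library 1 and within it in library 2. The third pair, Psmb10 over Psmb7, was 0.436 in western diet + CCl4, 0.306 and 0.323 in normal diet + CCl4, 0.283 and 0.417 in western diet + oil, and 0.306, 0.329 and 0.271 in normal diet + oil. For that pair the groups other than western diet + CCl4 overlapped. These ratios were not tested.

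**Figure D2:**
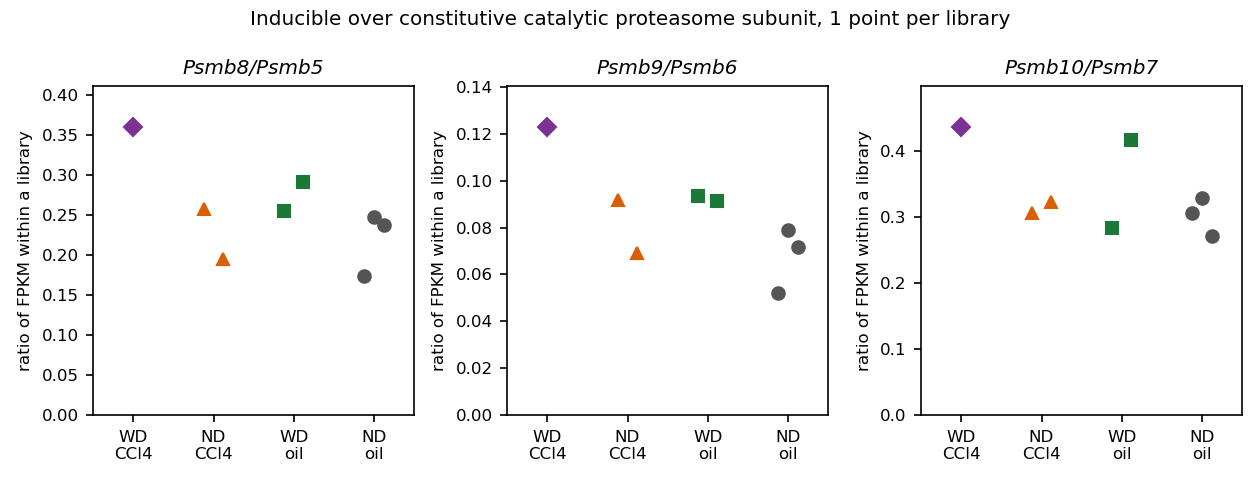
Ratio of FPKM of the inducible to the constitutive catalytic proteasome subunit within each library (vertical axes, linear, starting at 0), by group, with 1 point per library. The western diet + CCl4 library has the highest ratio for each pair, at 0.360, 0.123 and 0.436.

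All 9 members had a positive estimate against normal diet + oil in western diet + CCl4, in normal diet + CCl4 and in western diet + oil. Over all genes tested 72.2%, 83.9% and 76.7% of estimates were also positive. The median over the members was 0.88 in western diet + CCl4, 0.49 in normal diet + CCl4 and 0.82 in western diet + oil, against 0.19, 0.26 and 0.22 over all genes. Under median-of-ratios scaling the medians over the members were 0.73, 0.21 and 0.56, with medians over all genes near 0. In western diet + CCl4, 1 of 9 members passed (Ubd), where 0.669% of all genes rose. In normal diet + CCl4, 1 of 9 passed (Ubd), against 1.02% of all genes. In western diet + oil, 2 of 9 passed (Ubd and Gbp2), against 3.81%. No member fell, where 0.261%, 0.4% and 0.599% of all genes fell in these comparisons. At an unadjusted p below 0.05 in limma, 5 of 9 members were higher in western diet + CCl4, beside 12.6% of all genes. The numbers were 2 of 9 in normal diet + CCl4, beside 20.6%, and 5 of 9 in western diet + oil, beside 20.9%. In normal diet + CCl4 118 genes rose and 46 fell over the whole table, against 37 and 54 under median-of-ratios scaling, and in western diet + oil 439 rose and 69 fell, against 212 and 71.

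Without overlap of libraries, 9 of 9 members were higher in western diet + CCl4, beside 51.5% of all genes. The members higher without overlap were 2 of 9 in normal diet + CCl4 (Ubd and Gbp3), beside 41.8% of all genes, and 7 of 9 in western diet + oil (all but Irf7 and Isg15), beside 40.7%. Fewer cells of a type and less RNA per cell cannot be told apart in such tissue RNA, and the same holds for more. In simulated data with a change of 1 on the log2 scale, 0% of changed genes were recovered in western diet + CCl4 against normal diet + oil. The share was 36% in normal diet + CCl4 and in western diet + oil against that group. With a change of 2 these shares were 80.5% to 91.5%. In western diet + CCl4 against western diet + oil, against normal diet + CCl4, and in the interaction, 0% were recovered with a change of 1. With a change of 2 the shares there were 79%, 76.5% and 49%.

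**Figure D3:**
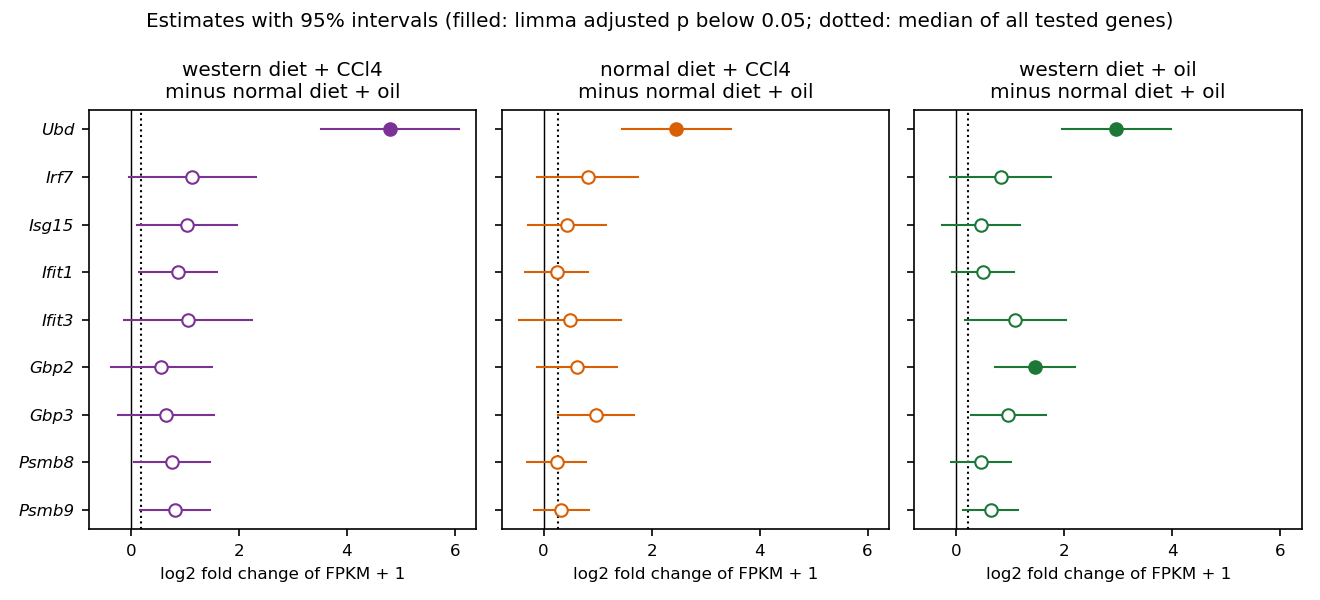
Log2 fold change of FPKM + 1 for each member (horizontal axis) with its 95% interval, in the 3 groups against normal diet + oil; filled points passed at a limma adjusted p below 0.05 and the dotted line is the median over all genes. Ubd lies apart from the other members at 4.80, 2.45 and 2.96, and Gbp2 at 1.45 in western diet + oil is the other filled point.

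Between western diet + CCl4 and western diet + oil, 0 of 9 members passed in the limma test, beside 0.0261% of all genes that rose and 0.0174% that fell. At an unadjusted p below 0.05, 1 member was higher (Ubd), beside 1.93% of all genes, and none was lower, beside 2.26%. Ubd was 1.84 ± 0.59 higher on the log2 scale (limma adjusted p = 0.876; 95% interval 0.48 to 3.19). Of the 9 members, 6 had an estimate above 0, beside 44.8% of all genes. The estimates below 0 were those of Gbp2, Gbp3 and Ifit3, at -0.88 ± 0.43, -0.31 ± 0.41 and -0.04 ± 0.54. Between western diet + CCl4 and normal diet + CCl4, 0 of 9 members passed in the limma test, beside 0.165% of all genes that rose and 0.0955% that fell, and 1 was higher at an unadjusted p below 0.05, beside 3.2% of all genes. That member was Ubd, at 2.34 ± 0.59 (limma adjusted p = 0.257; 95% interval 0.99 to 3.70).

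Whether the response to CCl4 depended on diet was tested as an interaction, in which 0 of 9 members passed (limma), beside 0.0347% of all genes above 0 and 0.0261% below 0. At an unadjusted p below 0.05, 2 members did, both below 0, and none above 0, beside 1.43% of all genes. They were Gbp2 at -1.51 ± 0.54 (limma adjusted p = 0.475) and Gbp3 at -1.28 ± 0.51 (limma adjusted p = 0.499), beside 8.35% of all genes in that direction. The median interaction over all genes was -0.29. For Ubd the interaction was -0.62 ± 0.73 (limma adjusted p = 0.739; 95% interval -2.31 to 1.07).

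The members shared an order of libraries within the groups. Normal diet + oil 2 was the highest of its group for 9 of 9 members and normal diet + oil 3 the lowest of all 8 libraries for 9 of 9. Normal diet + CCl4 1 exceeded normal diet + CCl4 2 for 9 of 9, by a factor of 1.50 for Psmb9 up to 3.60 for Ubd. Western diet + oil 2 exceeded western diet + oil 1 for 8 of 9, with Ifit1 the exception. The share of all genes with these orders was not computed. The median-of-ratios factor of each library, taken over genes above 0 in all libraries, was 0.891, 0.932 and 0.840 in normal diet + oil 1, 2 and 3. It was 1.20 and 1.03 in normal diet + CCl4 1 and 2, so much of the table shared the order in these groups. In western diet + oil 1 and 2 it was 1.08 and 1.06. Over the 8 libraries the Pearson r of log2(FPKM + 1) between members ranged from 0.614 (Isg15 and Gbp2) to 0.977 (Psmb8 and Psmb9), a description over libraries that share groups, depth and composition.

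The ligands and receptors of the pathway were read from a list of 19 genes. Of these, Ifnb1, Ifng, Ifnl3 and the inhibitor Socs1 are listed at 0 in every library. The 15 tested genes gave 0 that rose and 0 that fell against normal diet + oil in each of western diet + CCl4, normal diet + CCl4 and western diet + oil (limma). At an unadjusted p below 0.05, 4, 6 and 4 were higher, beside 12.6%, 20.6% and 20.9% of all genes. The medians of the 15 genes were 0.23, 0.40 and 0.35, against 0.19, 0.26 and 0.22 over all genes. With median-of-ratios scaling they became 0.04, 0.12 and 0.14. The median in normal diet + CCl4 was 0.49 without library 2 of that group and 0.24 without library 1.

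Stat2 gave 0.18 ± 0.37, 0.08 ± 0.29 and 0.05 ± 0.29 in western diet + CCl4, normal diet + CCl4 and western diet + oil against normal diet + oil (limma adjusted p = 0.852, 0.87 and 0.931), and each of these groups overlapped normal diet + oil. Irf9, its partner in the complex at the ISRE, gave 0.48 ± 0.29, 0.32 ± 0.23 and 0.29 ± 0.23 (limma adjusted p = 0.484, 0.395 and 0.486). Irf1, a transcription factor induced by interferon, gave 0.63 ± 0.30, 0.72 ± 0.24 and 0.46 ± 0.24 (limma adjusted p = 0.368, 0.152 and 0.287).

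Of 35 tested effectors of type I interferon other than the members, 0 rose in western diet + CCl4, 0 in normal diet + CCl4 and 4 in western diet + oil, and 0 fell (limma). Over all genes 0.669%, 1.02% and 3.81% rose. Higher at an unadjusted p below 0.05 were 14, 13 and 12, beside 12.6%, 20.6% and 20.9% of all genes. The medians of the 35 effectors were 0.88, 0.42 and 0.56, against 0.19, 0.26 and 0.22 over all genes. In each comparison 34 of 35 were above 0, beside 72.2%, 83.9% and 76.7% of all genes. Under median-of-ratios scaling 34, 23 and 29 of 36 were above 0, with medians of 0.66, 0.20 and 0.32. The 4 were Ifitm1, a membrane protein that blocks virus entry, at 1.81, Oas1g and Oas2, oligoadenylate synthetases that make the signal for RNase L, at 1.22 and 1.10, and Uba7, the enzyme that activates Isg15, at 0.83 (limma adjusted p = 0.0327, 0.0408, 0.036 and 0.0431). Each of these calls was lost when any western diet + oil or normal diet + oil library was left out, and median-of-ratios scaling left 2 calls in the list. The counts depended on normal diet + CCl4 as well, and counts over the whole table also moved with the library left out. The median of this list in normal diet + CCl4 was 0.73 without library 2 of that group and 0.11 without library 1. Usp18, which removes Isg15 from proteins, had 6.40 FPKM in western diet + CCl4, 8.44 and 4.30 in normal diet + CCl4, 3.70 and 3.78 in western diet + oil, and 2.15, 3.15 and 1.48 in normal diet + oil. No treated library overlapped normal diet + oil, and its changes of 1.21 ± 0.36, 1.15 ± 0.29 and 0.57 ± 0.29 did not pass (limma adjusted p = 0.175, 0.107 and 0.279). Oas1g has a close copy, Oas1a, with which it can share fragments.

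**Figure D4:**
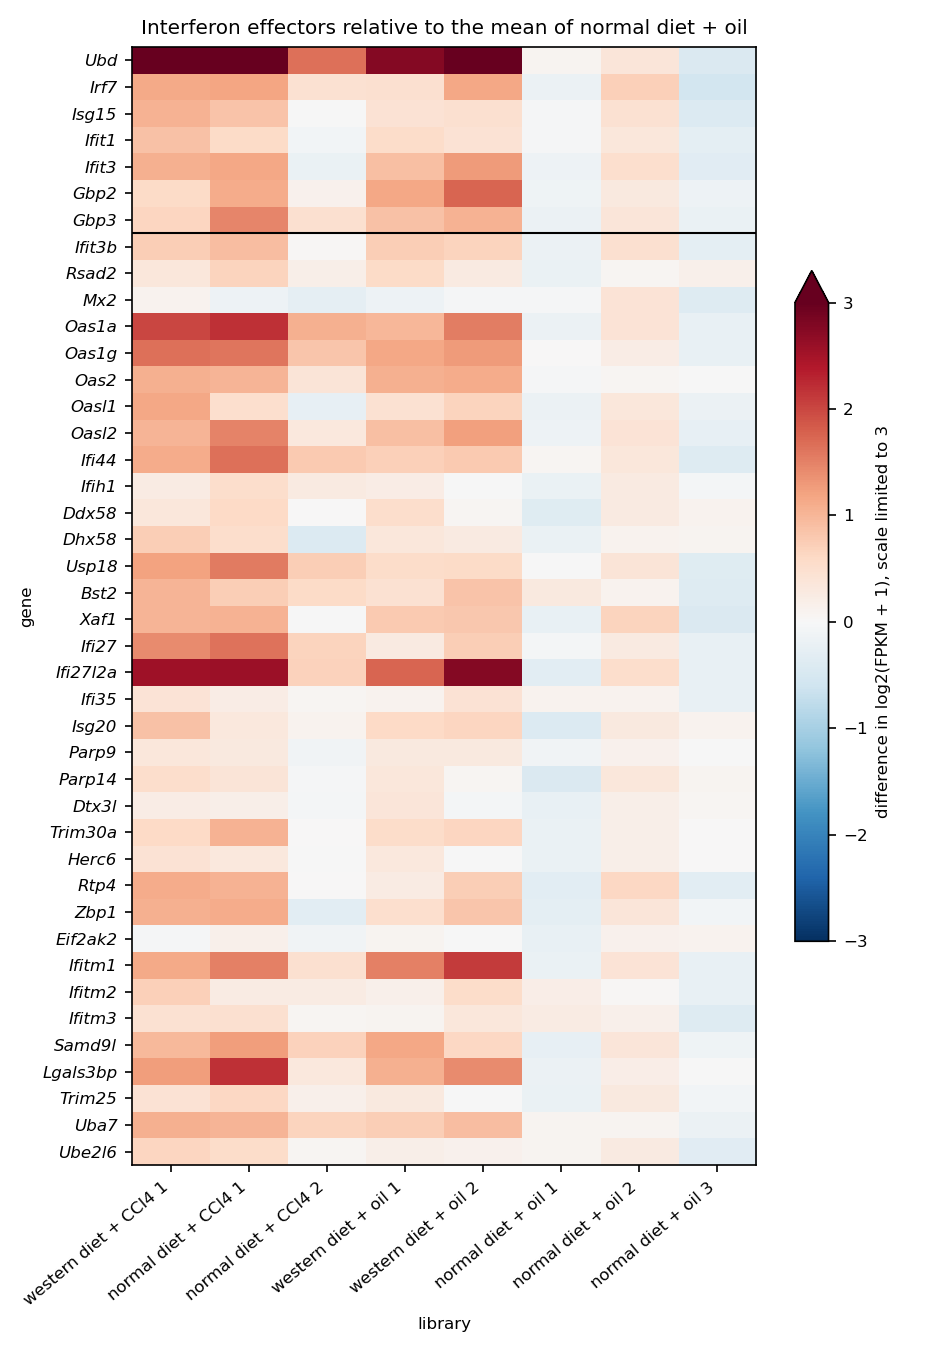
Difference of log2(FPKM + 1) from the mean of normal diet + oil (colour, limited to 3 in either direction) for Ubd, 6 other members and 35 further effectors (rows) in the 8 libraries (columns); the line divides members from the others. Red is stronger in western diet + CCl4 1, normal diet + CCl4 1 and western diet + oil 2 than in normal diet + CCl4 2, which is near the level of normal diet + oil for many rows.

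Among 13 other tested interferon-inducible GTPases, 0 rose in western diet + CCl4, 0 in normal diet + CCl4 and 1 in western diet + oil, with medians of 0.26, 0.19 and 0.15. Over all genes 0.669%, 1.02% and 3.81% rose. Higher at an unadjusted p below 0.05 in limma were 2, 2 and 1, beside 12.6%, 20.6% and 20.9% of all genes. The GTPase that rose was Gbp8, at 1.08 ± 0.19 (limma adjusted p = 0.0281), lost when any western diet + oil or normal diet + oil library was left out. Under median-of-ratios scaling the medians of this list were 0.07, -0.10 and -0.02. Among 18 other genes of the immunoproteasome and MHC class I, 0 passed in each comparison, with medians of 0.35, 0.27 and 0.34, beside 0.19, 0.26 and 0.22 over all genes, and with 4, 1 and 4 higher at an unadjusted p below 0.05 (limma). Under median-of-ratios scaling these medians were 0.13, -0.05 and 0.09. In normal diet + CCl4 the median was 0.36 without library 2 of that group and 0.13 without library 1. The peptide transporter Tap1 gave 0.76 ± 0.27, 0.35 ± 0.21 and 0.49 ± 0.21 (limma adjusted p = 0.238, 0.33 and 0.215), and the subunit Psmb10 gave 0.34 ± 0.35, 0.18 ± 0.28 and 0.42 ± 0.28 (limma adjusted p = 0.693, 0.673 and 0.407).

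The 14 constitutive subunits of the proteasome core gave 0 calls in each comparison, with medians of 0.02, 0.10 and 0.22 and with 0 at an unadjusted p below 0.05 (limma). Under median-of-ratios scaling the medians turned to -0.21, -0.22 and -0.04, with 1, 0 and 5 of 14 above 0. The subunits replaced by Psmb8, Psmb9 and Psmb10 were among them. Psmb5 gave 0.08 ± 0.30, 0.21 ± 0.24 and 0.16 ± 0.24, Psmb6 gave 0.02 ± 0.31, 0.10 ± 0.25 and 0.22 ± 0.25, and Psmb7 gave -0.17 ± 0.26, 0.13 ± 0.21 and 0.24 ± 0.21 (limma adjusted p of 0.511 to 0.985). Among the 4 tested partners of FAT10, which include the conjugating enzyme Ube2z and the receptor Nub1, 0 passed and 0 were under an unadjusted p of 0.05 (limma), with medians of 0.25, -0.04 and 0.15, and of 0.04, -0.35 and -0.10 under median-of-ratios scaling. Uba6, the enzyme that activates FAT10, was too low to be tested, with 0.326 FPKM in western diet + CCl4, 0.491 and 0.476 in normal diet + CCl4, 0.634 and 0.358 in western diet + oil, and 0, 0.321 and 0.375 in normal diet + oil.

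Ubd is also a target of TNF and NF-kappaB, so 21 genes of that pathway were read. Tnf, Lta and Il6 are listed at 0 in every library. Of 18 tested, 0 rose in western diet + CCl4, 1 in normal diet + CCl4 and 6 in western diet + oil, with medians of 0.70, 0.27 and 0.93, and 0 fell (limma). Over all genes 0.669%, 1.02% and 3.81% rose. At an unadjusted p below 0.05, 8, 5 and 13 were higher, beside 12.6%, 20.6% and 20.9% of all genes. With median-of-ratios scaling the medians of this list became 0.58, 0.12 and 0.75. The chemokine Ccl5 had 3.98 FPKM in western diet + CCl4, 9.84 and 9.65 in normal diet + CCl4, 4.22 and 8.68 in western diet + oil, and 0.958, 0.582 and 0.963 in normal diet + oil. It rose by 2.56 ± 0.26 in normal diet + CCl4 (limma adjusted p = 0.0053) and by 1.96 ± 0.26 in western diet + oil (limma adjusted p = 0.0152). In western diet + CCl4 it did not pass, at 1.45 ± 0.32 (limma adjusted p = 0.0986).

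In western diet + oil, Ccl2, a chemokine that draws monocytes, rose by 2.07 ± 0.28, the NF-kappaB subunit Nfkb2 by 1.35 ± 0.17 and the adhesion molecule Icam1 by 1.18 ± 0.20 (limma adjusted p = 0.0152, 0.0142 and 0.0267). Tnfaip3, an inhibitor of NF-kappaB, and the subunit Relb rose too, by 1.13 and 1.18 (limma adjusted p = 0.0473 and 0.0469). Without western diet + oil 1 the list gave 1 call in that comparison, and without western diet + oil 2 it gave 0. Without 1 of the normal diet + oil libraries it gave 2 to 4. Median-of-ratios scaling left 4. The median of the list in normal diet + CCl4 was 0.47 without library 2 of that group and 0.27 without library 1. Counts over the whole table also moved with the library left out. The Ccl5 call in normal diet + CCl4 was lost without normal diet + CCl4 1 (adjusted p = 0.0539).

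**Figure D5:**
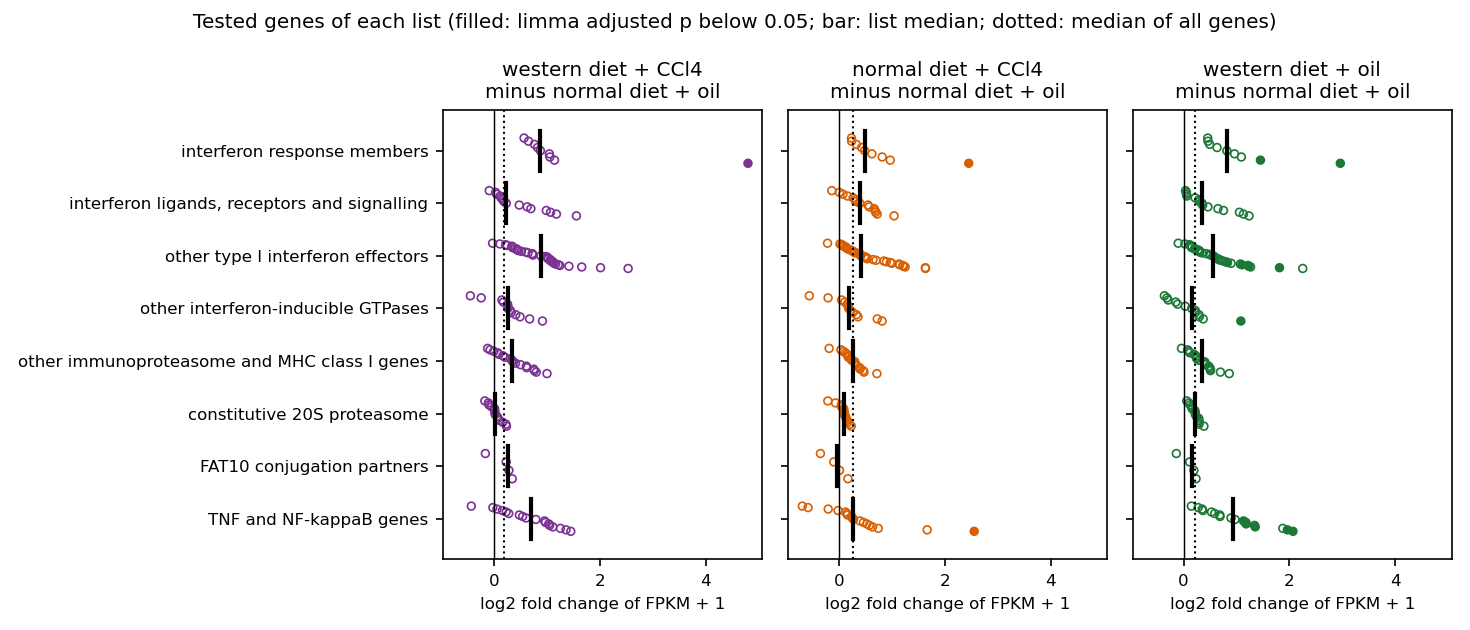
Log2 fold change of FPKM + 1 for the tested genes of each list (points), in the 3 groups against normal diet + oil; filled points passed at a limma adjusted p below 0.05, bars are list medians and the dotted line is the median over all genes. The members and the type I effectors have medians of 0.88 in western diet + CCl4, to the right of the constitutive proteasome at 0.02 (-0.21 under median-of-ratios scaling), and Ubd is the point farthest right in western diet + CCl4 and western diet + oil.

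Markers of other liver cells also differed between the groups, in patterns that were not the same for each cell type. Over 11 Kupffer cell and macrophage markers the summed FPKM was 477 in western diet + CCl4, 437 and 156 in normal diet + CCl4 1 and 2, 577 to 1097 in western diet + oil and 82.1 to 148 in normal diet + oil. Of these markers 10 of 11 rose in western diet + oil, beside 3.81% of all genes, and 0 in each of the CCl4 groups. The medians over these markers were 1.68, 1.07 and 2.51 in western diet + CCl4, normal diet + CCl4 and western diet + oil. At an unadjusted p below 0.05 (limma), 9, 6 and 11 of 11 were higher, beside 12.6%, 20.6% and 20.9% of all genes. The 10 became 0 without either western diet + oil library, 1, 1 and 5 without normal diet + oil 1, 2 and 3, and 11 without either normal diet + CCl4 library. The number of genes called over the whole table also moved with the library left out. By library, the sum in normal diet + oil was 82.1, 129 and 148 in libraries 1, 2 and 3. Whether the members followed these sums was not tested. Over 6 neutrophil markers the sum was 443 in western diet + CCl4 and 4.68 to 6.90 in normal diet + CCl4. It was 21.7 to 42.0 in western diet + oil and 2.10 to 9.13 in normal diet + oil. Of the 4 tested, 3 rose in western diet + CCl4, 0 in normal diet + CCl4 and 2 in western diet + oil. Over all genes 0.669%, 1.02% and 3.81% rose in these comparisons. With each other library left out, 2 to 4 rose in western diet + CCl4 and 0 to 3 in western diet + oil.

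Markers of T and NK cells, which can make interferon-gamma, were low, and their sums do not count cells. The sum over 8 T cell markers was 1.09 in western diet + CCl4, 4.03 to 4.58 in normal diet + CCl4, 2.22 to 7.26 in western diet + oil and 0.920 to 2.10 in normal diet + oil, with Cd3d listed at 0 throughout. That over 8 NK cell markers was 1.82, 1.34 to 2.99, 1.34 to 3.44 and 0 to 0.846 in the same groups, with Ncr1, Klrb1c, Prf1 and Eomes listed at 0 throughout. For both lists 1 marker could be tested and 0 passed. Over 8 dendritic cell markers the sum was 2.87, 1.09 to 3.56, 3.54 to 3.66 and 0.432 to 1.14, with Flt3, Xcr1 and Ccr9 listed at 0. Over 6 B cell markers it was 5.36, 2.11 to 3.86, 4.59 to 4.88 and 1.76 to 3.87, with Ms4a1 and Pax5 listed at 0.

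Over 8 sinusoidal endothelial markers the sum was 47.1 in western diet + CCl4, 61.7 to 95.3 in normal diet + CCl4, 75.7 to 84.0 in western diet + oil and 34.6 to 48.5 in normal diet + oil. Over 8 stellate cell markers it was 92.5, 63.9 to 143, 117 to 132 and 37.9 to 43.2 in the same groups. Over 6 cholangiocyte markers it was 174, 28.6 to 459, 60.4 to 97.2 and 18.5 to 39.8. Spp1 alone made up 93.2% to 99.2% of that sum in each library, and the other 5 markers together came to 4.09, 1.78 to 3.56, 1.97 to 2.39 and 0.369 to 1.26. Over 5 erythroid genes the sum was 732, 253 to 282, 554 to 928 and 230 to 350. Of the tested markers, 3 of 8 endothelial, 3 of 8 stellate and 3 of 5 erythroid rose in western diet + oil, beside 3.81% of all genes. In normal diet + CCl4, 1 of 8 stellate rose, beside 1.02% of all genes. When 1 library of western diet + oil or normal diet + oil was left out, these counts in western diet + oil were 0 to 2, 0 to 2 and 0, and without either normal diet + CCl4 library they were 4, 7 and 3. Higher at an unadjusted p below 0.05 in western diet + CCl4, normal diet + CCl4 and western diet + oil were 0, 6 and 6 endothelial markers. The shares of all genes were 12.6%, 20.6% and 20.9%, and the endothelial medians were 0.32, 0.77 and 0.98. For stellate markers the numbers were 4, 8 and 6, with medians of 1.05, 1.05 and 1.07. Hepatocyte, dendritic, B cell and cholangiocyte markers gave 0 calls in each comparison with all libraries (limma). The hepatocyte medians were -0.29, 0.11 and -0.13, against 0.19, 0.26 and 0.22 over all genes. Of 8 hepatocyte markers, 3, 4 and 2 had an estimate above 0, beside 72.2%, 83.9% and 76.7% of all genes. At an unadjusted p below 0.05 (limma), 0, 2 and 0 of them were higher, beside 12.6%, 20.6% and 20.9% of all genes. The part of other cell types in the levels of the members was not tested.

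The genes whose log2(FPKM + 1) followed Ubd most closely over the 8 libraries, of 11513 others tested, were the membrane protein Bsg (Pearson r = 0.989), the interleukin-1 receptor antagonist Il1rn (0.988), Sectm1a (0.986), the lysosomal membrane protein Cd63 (0.983) and its copy Cd63-ps (0.979). Il1rn had 6.31 FPKM in western diet + CCl4, 3.94 and 1.07 in normal diet + CCl4, 3.30 and 3.62 in western diet + oil, and 0.422, 0.560 and 0 in normal diet + oil. None of the 5 is a member of the interferon lists. Of the 3 closest genes of each other member, 2 were members: Ifit1 for Isg15 (0.968) and Psmb9 for Psmb8 (0.977). For Irf7 they were Naip2, Cdk2ap1 and Eif4h (0.954 to 0.959), and for Gbp3 Atp6v0d2, Glipr1 and Cd93 (0.989 to 0.995). For Gbp2 they were Ncln, Gipc1 and Hlx (0.985 to 0.994), for Ifit3 Scamp2, Pla2g15 and Plaur (0.982 to 0.986), and for Ifit1 Emp2, Prg4 and Scamp5 (0.969 to 0.982). The closest to Psmb9 were Ssbp4, Mcrip1 and Nudt18 (0.979 to 0.990), and Nup210 and Anpep (0.978 and 0.975) stood before Ifit1 for Isg15, as Pigx and Scamp5 (0.982 and 0.980) did before Psmb9 for Psmb8. These are the highest of many values over 8 libraries that share groups, and are a description.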

How the data were processed

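RNA of mouse liver was sequenced in 8 libraries prepared with a stranded mRNA kit, per the labels' protocols. The authors deposited FPKM for 55487 genes. The submitters' processing notes list the build GRCm38 and the tools StringTie 2.1.0, HISAT2 2.2.1, cutadapt 3.7 and FastQC 0.11.9, with no role for any of them. The depth of each library is unknown, because low FPKM gave no steps of whole reads, so no counting error was computed. The library sums and the lowest values above 0 are in the report.

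A gene was kept if 2 or more libraries had 1 FPKM or more (11514 genes). On log2(FPKM + 1), 1 linear model with a mean per group was fitted to all 8 libraries with limma 3.58.1 in R 4.3.3 (eBayes with trend; 4 residual and 3.93 prior degrees of freedom). Groups came from the labels, and 6 contrasts were tested two-sided, with Benjamini-Hochberg adjustment over all genes of a contrast. Rose and fell are used of adjusted p below 0.05. Libraries do not overlap where the lowest of a group exceeds the highest of the other. The code was tested on simulated tables of 11514 genes in which 200 were changed.

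The members and gene lists were chosen with earlier results of these data known. Genes named were the 9 members, up to 4 genes with the smallest p among the called genes of each list, 14 fixed genes (1 of them is not reported here), and for each member the 3 genes (5 for Ubd) with the highest Pearson r. Tnfaip3, Relb, Ube2z, Nub1 and Spp1, and the genes listed at 0 other than Ifng, Ifnb1 and Tnf, were named after their values were seen. Coordinates came from GENCODE M21, promoters and motif shares from RefSeq (GRCm38.p6). Alternatives were no filter, a filter at a mean of 5 FPKM, a pseudocount of 0.1, median-of-ratios scaling, removal of the Mup family with rescaling, the replicate number as a block, the compared groups alone, and each library left out in turn. Counts of list and marker genes and medians of lists with each library left out were added after seeing the data.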

Additional observations from a re-analysis of the deposited data

Results flagged for a closer look

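Estimates of the response of Gbp2 to CCl4 had opposite signs under the diets, and neither passed. The western diet + CCl4 library (1.65 FPKM) lay below both western diet + oil libraries (2.99 and 5.02). The normal diet + CCl4 libraries (2.89 and 0.964 FPKM) overlapped normal diet + oil (0.604 to 1.19), and the change of 0.63 there was 0.13 without normal diet + CCl4 1. The interaction was -1.51 ± 0.54 on the log2 scale (limma adjusted p = 0.475). Estimates of Gbp3 had the same signs, with 2.40 FPKM in western diet + CCl4 against 2.99 and 3.46 in western diet + oil, and an interaction of -1.28 ± 0.51 (limma adjusted p = 0.499). Both differences were tested and neither passed after adjustment, and each rests on 1 western diet + CCl4 library. No group held the 4 libraries needed to look for a library far from the others.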

How the results depend on the processing

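Group sizes of 1 to 3 libraries, unknown depth and libraries not stated to be separate animals limit these results. Of the calls for members, that of Ubd in western diet + CCl4 against normal diet + oil was lost with a pseudocount of 0.1 and with the replicate block, and the other 3 were lost under several alternatives. Against normal diet + oil, called members numbered 1 in western diet + CCl4, 1 in normal diet + CCl4 and 2 in western diet + oil. With a pseudocount of 0.1 these became 0, 0 and 1. In normal diet + CCl4 the count was 0 without a filter, with median-of-ratios scaling, without the Mup family and with the compared groups alone. In western diet + oil it was 0 without a filter and 1 with a mean FPKM of at least 5, with median-of-ratios scaling and without the Mup family. With each library left out in turn the counts ranged from 1 to 1, from 0 to 2 and from 0 to 3, and from 0 to 0 in the other comparisons and the interaction. The cause of these changes was not tested.

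Genes called over the whole table numbered 107, 164 and 508 in western diet + CCl4, normal diet + CCl4 and western diet + oil against normal diet + oil, 5 in western diet + CCl4 against western diet + oil, 30 in western diet + CCl4 against normal diet + CCl4 and 7 in the interaction. Counts that moved by over 1.5 times are given in that order of comparisons. With a pseudocount of 0.1 they were 43 (the first), and 0, 15 and 3 (the last 3). Without a filter they were 171, 18, 121, 69, 109 and 17. With a mean FPKM of at least 5 they were 42 (the first), 190 (the third), 0 (the fourth) and 3 (the interaction). Median-of-ratios scaling gave 91 and 283 in normal diet + CCl4 and western diet + oil and 0 in the interaction, and removal of the Mup family 95, 306, 8 (the fourth) and 0. The compared groups alone gave 39 and 1143 in normal diet + CCl4 and western diet + oil. With each library left out the counts ranged from 36 to 486, 22 to 1165, 4 to 1159, 1 to 16, 6 to 32 and 0 to 168. In normal diet + CCl4 118 genes were higher and 46 lower as deposited, against 37 and 54 after median-of-ratios scaling, and in western diet + oil 439 and 69 against 212 and 71.

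The labels do not say whether replicate numbers pair libraries. Deviations of libraries with the same number correlated at -0.28 to -0.014 over 11514 genes, which cannot decide it. In a group of 2 libraries the deviations mirror each other, and western diet + CCl4 and normal diet + oil 3 were not in this comparison. With the replicate block 0 members were called in each comparison, Ubd gave 4.42 ± 0.61 (limma adjusted p = 0.0883), 2.23 ± 0.48 (0.175) and 2.74 ± 0.48 (0.102), and genes called were 6, 49, 32, 0, 11 and 2.

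Changes of direction fell on estimates that did not pass. Under median-of-ratios scaling they were Psmb8 in normal diet + CCl4 against normal diet + oil (-0.069), Gbp2 in western diet + CCl4 against normal diet + CCl4 (0.015) and Psmb9 in the interaction (0.19). The others came from leaving out 1 library, and are given as ranges over the libraries left out. In normal diet + CCl4 against normal diet + oil, Isg15 ranged from -0.0028 to 0.87, Ifit1 from -0.090 to 0.57, Ifit3 from -0.19 to 1.17 and Psmb8 from -0.10 to 0.58, each lowest without normal diet + CCl4 1. In western diet + CCl4 against western diet + oil, Irf7 ranged from -0.018 to 0.67 and Ifit3 from -0.22 to 0.15. With normal diet + CCl4 in place of western diet + oil, Irf7 ranged from -0.048 to 0.69, Ifit3 from -0.11 to 1.25, Gbp2 from -0.55 to 0.43 and Gbp3 from -0.80 to 0.16. In the interaction, Ubd ranged from -1.41 to 0.17, Isg15 from -0.28 to 0.59, Ifit1 from -0.19 to 0.47, Ifit3 from -1.20 to 0.16, Psmb8 from -0.28 to 0.40 and Psmb9 from -0.40 to 0.12.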
